A study of Sus scrofa with 11 samples.

Results

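The 8 genes described here encode the carnitine shuttle, the set of enzymes and carriers that moves fatty acids across the mitochondrial membranes bound to carnitine. They are CPT1A, CPT1B, CPT1C, CPT2, SLC25A20, CRAT, CROT and SLC22A5, taken by their symbols from the 30376 genes measured, and all 8 passed the filter on low values that left 13956 genes. The genes were chosen by their relation to CPT1A, whose level in diabetic and non-diabetic wounds was already known when the set was drawn up, so the contrast between the groups is given for them as a description and was not tested. RNA was sequenced from full-thickness skin wounds of female Yucatan minipigs, excised on day 10 after wounding with a biopsy punch. The 7 diabetic wounds came from 1 minipig infused with streptozotocin (STZ), a toxin of the insulin-producing beta cells, which then received insulin until the week before wounding. The 4 non-diabetic wounds came from 1 minipig of the same strain and sex that was wounded in the same way and received no STZ. An age is given in the study's methods for the diabetic minipig alone. Each wound gave 1 library, so replicate error here is variation among wounds on the same animal, and the diabetic state cannot be told apart from any other difference between the 2 animals.

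Long-chain fatty acids reach the mitochondrial matrix only as acyl-carnitines. The CPT1 enzymes of the outer membrane attach the carnitine, the carrier encoded by SLC25A20 exchanges acyl-carnitine for free carnitine across the inner membrane, and CPT2 on the matrix side returns the acyl group to coenzyme A for beta-oxidation. CPT1 is the regulated entry step and is inhibited by malonyl-CoA, the product of acetyl-CoA carboxylase, so that fatty acid synthesis and oxidation do not run at full rate together. CPT1A is the form of liver and most other tissues, CPT1B that of muscle and brown fat, and CPT1C a form of neurons found in the endoplasmic reticulum. CRAT and CROT transfer acetyl and medium-chain groups to and from carnitine, and SLC22A5 (OCTN2) takes carnitine up into the cell. Several genes of the shuttle are classical targets of the fatty acid receptors of the PPAR family.

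Between 28314785 and 40168372 reads per diabetic wound and between 32961018 and 36872400 reads per non-diabetic wound fell on genes, and levels are given as FPKM, reads divided by gene length and by 1 divisor per library. The divisor followed median-of-ratios size factors, to within 0.995 to 1.005 times, more closely than it followed the reads on genes. A gene was called when its limma adjusted p was under 0.05 and its log2 fold change over 0.5 in size. The diabetic wounds had 1.35% of the tested genes called higher and 1.66% called lower, and the median log2 fold change was 0.01. Diabetic replicate 4 and non-diabetic replicate 1 stood apart from the other wounds on the first principal component, which held 44.5% of the variance, and had the lowest summed keratinocyte and neutrophil marker levels of their groups. Their summed levels were 41.5 and 46.2 FPKM in diabetic replicate 4, against medians of 2962 and 7251 FPKM over the diabetic wounds. Diabetic replicate 3 held skeletal muscle RNA. Its 10 measured muscle markers summed to 2063 FPKM, against 1.62 to 4.26 FPKM in the other diabetic wounds and 0.852 to 3.76 FPKM in the non-diabetic wounds. In bulk tissue, fewer cells of a type and less RNA per cell cannot be told apart.

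CPT1A was the most abundant gene of the shuttle in diabetic wounds and only the fifth in non-diabetic wounds. Its lowest, median and highest levels over the 7 diabetic wounds were 30.7, 34.5 and 35.3 FPKM. The 4 non-diabetic wounds had 6.35, 8.83, 6.28 and 9.91 FPKM. The groups did not overlap, and 20.8 FPKM separated the lowest diabetic from the highest non-diabetic wound. The means were 33.9 ± 1.59 FPKM (SD, n = 7) and 7.84 ± 1.82 FPKM (SD, n = 4), a 4.32-fold difference, and the log2 fold change of FPKM + 0.5 was 2.07 with a standard error of 0.12 and a 95% interval of 1.81 to 2.33. These values rested on 3752 to 6748 reads per diabetic and 779 to 1654 reads per non-diabetic wound. CPT1A (gene 399527) lies on chromosome 2 from 4250642 to 4293914 of Sscrofa11.1, on the plus strand, with 1 annotated transcript.

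The level of CPT1A was also close to uniform among the diabetic wounds. Its coefficient of variation there was 4.69%, against a median of 20.9% over the genes tested, and 0.530% of those genes had a lower one. Among the 1120 genes of a like level in diabetic wounds, 1.16% had a lower coefficient. In non-diabetic wounds the coefficient was 23.2%, against a median of 16.7%. CPT1A was known to differ between the groups beforehand, and a small spread within a group makes a difference easier to detect. Its rank by spread is therefore a description and not a separate result. The 2 wounds with the lowest keratinocyte and neutrophil marker sums of their groups had 33.5 FPKM (diabetic replicate 4) and 6.35 FPKM (non-diabetic replicate 1) of CPT1A. Both lay within the range of their groups, and without both of them the log2 fold change was 1.98.

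**Figure D1:**
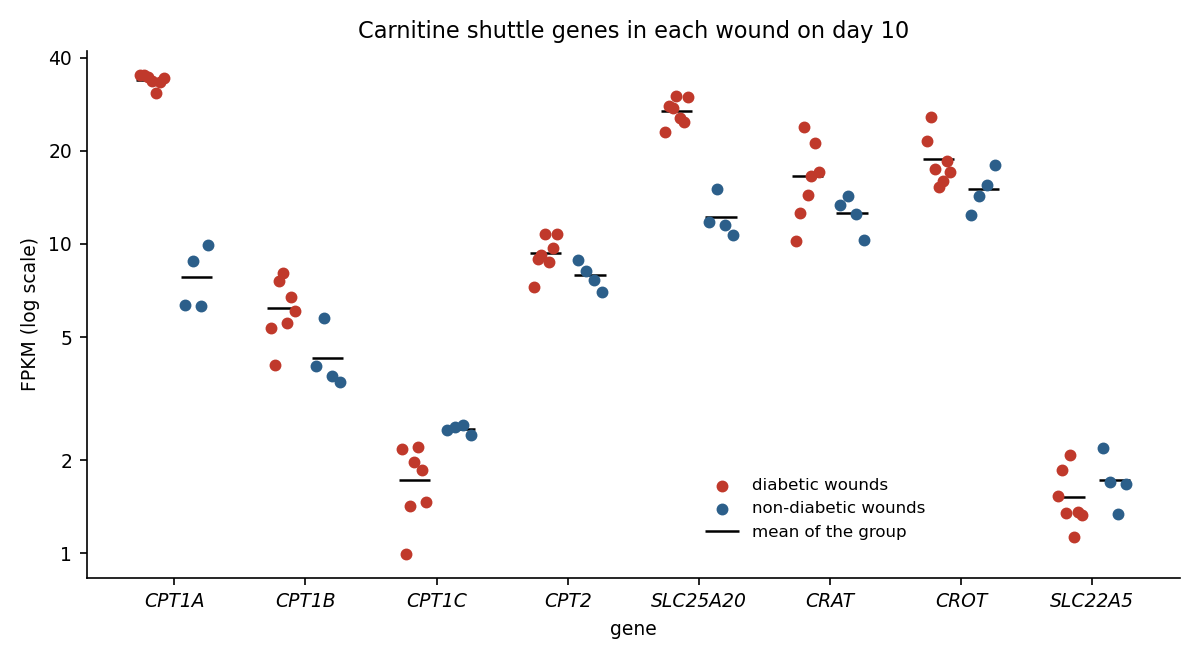
FPKM of the 8 carnitine shuttle genes on a log scale, with 1 point per wound (red, 7 diabetic wounds; blue, 4 non-diabetic wounds) and a bar at each group's mean. CPT1A and SLC25A20 have every diabetic wound above every non-diabetic wound, CPT1C has every diabetic wound below, and the groups overlap for the other 5 genes.

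The other 2 CPT1 genes were expressed at lower levels and differed from CPT1A in their direction or their overlap. CPT1B, on chromosome 5 from 155552 to 163536, ranged from 4.05 through a median of 6.08 to 8.05 FPKM in diabetic wounds. Its 4 non-diabetic levels were 4.02, 5.77, 3.75 and 3.57 FPKM. The groups overlapped, with 4 of the 7 diabetic wounds above the highest non-diabetic wound, and the log2 fold change was 0.48 (standard error 0.18). The wound that held muscle RNA had the second highest CPT1B level, 7.60 FPKM, and the highest, 8.05 FPKM, was in diabetic replicate 4, whose muscle markers summed to 1.62 FPKM. Without diabetic replicate 3 the log2 fold change of CPT1B was 0.43.

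CPT1C, on chromosome 6 from 54732701 to 54747706, was the member with the lower level in diabetic wounds and no overlap. The diabetic levels ran from 0.995 through a median of 1.86 to 2.198 FPKM, and the non-diabetic levels were 2.51, 2.56, 2.59 and 2.41 FPKM. The groups were separate, with a gap of 0.216 FPKM. The log2 fold change of -0.47 (standard error 0.16) did not reach the fold threshold used for the other genes. The 9 measured markers of nerve and Schwann cells, where CPT1C is mainly known, summed to 9.96 to 15.7 FPKM in diabetic and 9.71 to 19.997 FPKM in non-diabetic wounds. Of the 5 that passed the filter, 0 were called by limma or by voom. An unadjusted p under 0.05 was found for 2 of the 5 by each, beside 18.4% (limma) and 18.3% (voom) of all genes. Whether nerve and Schwann cells had a part in the CPT1C levels was not tested.

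Summed over CPT1A, CPT1B and CPT1C, the level was 41.8 ± 1.87 FPKM (SD, n = 7) with diabetes and 14.6 ± 2.24 FPKM (SD, n = 4) without. CPT1A made up 81.1 ± 3.35% of the sum in diabetic wounds (77.0% to 87.5%) and 53.2 ± 6.17% in non-diabetic wounds (49.3% to 62.4%). The share of CPT1B was 14.8 ± 2.89% and 29.3 ± 4.81%, and that of CPT1C 4.14 ± 1.13% and 17.5 ± 2.89%. The ranges of all 3 shares were separate between the groups. In the non-diabetic wounds the CPT1 transcripts were therefore divided between CPT1A and the other forms, while in each diabetic wound CPT1A held at least 77.0% of them. The shares are parts of the same sum, so a higher CPT1A level lowers the other shares, and the 3 are not separate results. The CPT1B level itself overlapped between the groups, with a log2 fold change of 0.48.

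**Figure D2:**
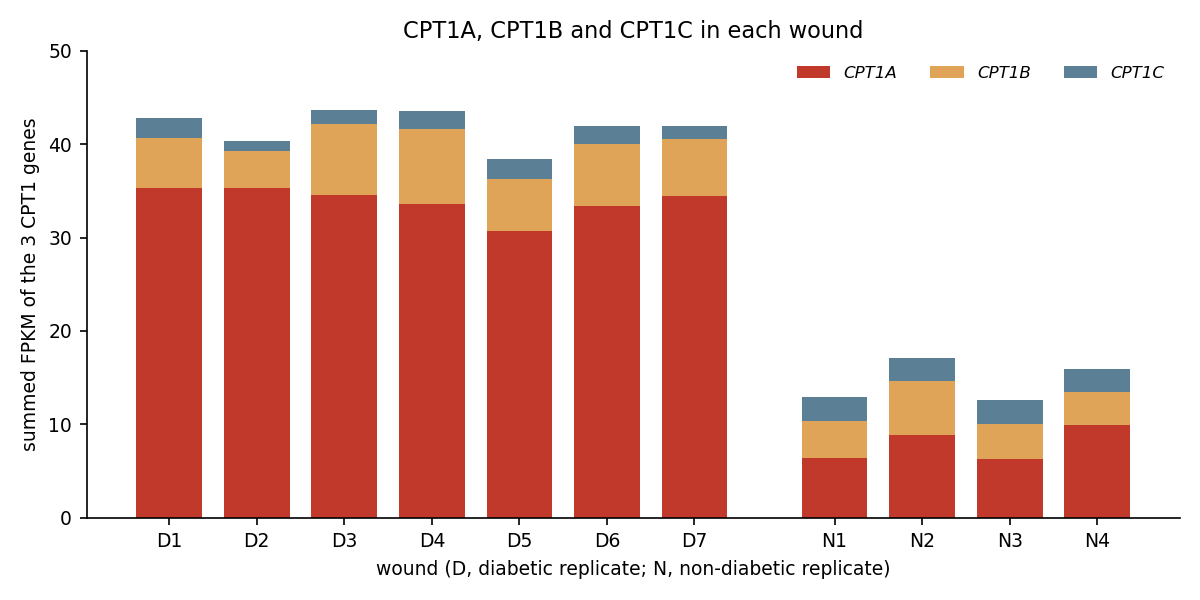
Summed FPKM of CPT1A (red), CPT1B (yellow) and CPT1C (blue) in each wound (D1 to D7, diabetic replicates; N1 to N4, non-diabetic replicates). The diabetic sums lie between 38.5 and 43.6 FPKM and the non-diabetic sums between 12.6 and 17.2 FPKM, and CPT1A makes most of the distance.

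SLC25A20, the carnitine-acylcarnitine carrier that follows CPT1 in the shuttle, was the second gene with separate groups in the same direction. It ranged from 23.1 through a median of 27.5 to 30.1 FPKM in diabetic wounds. The non-diabetic wounds had 11.8, 15.1, 11.5 and 10.7 FPKM, all below the lowest diabetic wound by at least 7.96 FPKM. The means were 27.0 ± 2.63 FPKM (SD, n = 7) and 12.3 ± 1.95 FPKM (SD, n = 4), a 2.198-fold difference with a log2 fold change of 1.11 (standard error 0.11, 95% interval 0.87 to 1.35). The gene (100524459) lies on chromosome 13 from 31523820 to 31553289 on the minus strand, with 1 annotated transcript. CPT1A stood above SLC25A20 in each diabetic wound, at a ratio of 1.27 ± 0.138 (SD, n = 7), and below it in each non-diabetic wound, at 0.649 ± 0.187 (SD, n = 4).

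CPT2, the matrix enzyme that completes the transfer, had overlapping levels in the groups. Its diabetic levels ran from 7.28 through a median of 9.21 to 10.8 FPKM, and its non-diabetic levels were 8.89, 8.16, 7.65 and 7.00 FPKM. The log2 fold change of CPT2 was 0.22 (standard error 0.11, 95% interval -0.03 to 0.47). The proportions of the 3 steps therefore differed between the groups. The ratio of CPT1A to CPT2 was 3.69 ± 0.589 (SD, n = 7) in diabetic and 1.01 ± 0.313 (SD, n = 4) in non-diabetic wounds, and that of SLC25A20 to CPT2 was 2.90 ± 0.219 and 1.55 ± 0.218. CPT2 lies on chromosome 6 from 159038129 to 159061327.

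The promoter windows of these 3 genes are shown because they encode successive steps of the import, of which the first pair had separate groups and CPT2 did not. Each run covers 250 bases before and 20 bases after the annotated start of the gene in Sscrofa11.1, read 5′ to 3′ on the gene's own strand, with matches to the motifs described next in capitals.
CPT1A, chr2:4250392-4250661, plus strand: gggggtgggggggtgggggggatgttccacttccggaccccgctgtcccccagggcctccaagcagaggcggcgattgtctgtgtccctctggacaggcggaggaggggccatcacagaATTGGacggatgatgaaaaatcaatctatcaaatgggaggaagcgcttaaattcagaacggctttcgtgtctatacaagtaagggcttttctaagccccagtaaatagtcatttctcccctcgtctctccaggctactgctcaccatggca
SLC25A20, chr13:31553270-31553539, minus strand: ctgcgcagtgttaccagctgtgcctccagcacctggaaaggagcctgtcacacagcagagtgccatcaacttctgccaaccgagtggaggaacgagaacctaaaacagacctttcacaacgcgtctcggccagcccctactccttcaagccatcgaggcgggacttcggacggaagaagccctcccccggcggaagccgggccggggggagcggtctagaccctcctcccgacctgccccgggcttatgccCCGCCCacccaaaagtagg
CPT2, chr6:159061308-159061577, minus strand: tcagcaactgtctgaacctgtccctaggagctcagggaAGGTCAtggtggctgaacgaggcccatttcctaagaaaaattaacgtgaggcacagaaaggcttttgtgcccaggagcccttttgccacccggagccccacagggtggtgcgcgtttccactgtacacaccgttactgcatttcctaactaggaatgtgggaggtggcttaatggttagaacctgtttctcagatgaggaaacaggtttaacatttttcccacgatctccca
The motifs were searched on both strands of 300 bases, from 250 before to 50 after the start, in the 20653 protein-coding genes with a complete window. They were AGGTCA (the hexamer of nuclear receptor sites), GGGCGG (the GC box of Sp1), CCAAT (the site of NF-Y), TATAAA (the TATA box) and CACGTG (the E-box), and they do not overlap in the windows shown. The capitals mark CCAAT on the reverse strand in CPT1A, 131 bases before the start, GGGCGG on the reverse strand at the start of SLC25A20, and AGGTCA 212 bases before the start of CPT2. Over all genes, CCAAT was present in 35.7% of windows, GGGCGG in 48.9% and AGGTCA in 14.2%. A pair of AGGTCA hexamers in the same direction with 1 base between them, the form that PPAR and RXR bind together, was absent without mismatch from all 8 windows, and it was present in 0.0291% of all windows. In windows of 5000 bases centred on the start, 0 of the 8 genes and 0.451% of all genes had it. The annotated transcript of CPT1A begins 14 bases before its coding sequence, so its window may not be that of the start used in these wounds. These matches describe letters in a window and say nothing of binding.

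CRAT and CROT, the carnitine acyltransferases for short and medium chains, had overlapping groups. CRAT, on chromosome 1 from 269387430 to 269401334, ranged from 10.2 through a median of 16.6 to 23.9 FPKM in diabetic wounds and had 13.4, 14.3, 12.5 and 10.3 FPKM in the other group. Its highest level was in the wound that held muscle RNA. The log2 fold change of CRAT was 0.34 (standard error 0.20), and 0.25 without that wound. CROT, on chromosome 9 from 93263606 to 93308150, ranged from 15.2 through a median of 17.5 to 25.8 FPKM in diabetic wounds and had 12.4, 14.2, 15.5 and 18.0 FPKM in the non-diabetic ones. The log2 fold change of CROT was 0.30 (standard error 0.15), and 3 of 7 diabetic wounds lay above the highest non-diabetic wound. The ratio of CRAT to CROT was 0.924 ± 0.331 (SD, n = 7) and 0.864 ± 0.226 (SD, n = 4), a difference within the spread of either group.

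SLC22A5, the plasma membrane importer that supplies the shuttle with carnitine, was the least abundant of the 8 genes in both groups. It ranged from 1.13 through a median of 1.36 to 2.08 FPKM in diabetic wounds and had 2.19, 1.70, 1.34 and 1.67 FPKM in non-diabetic wounds. The groups overlapped and the log2 fold change was -0.14 (standard error 0.15). Its level is uncertain, since the gene model on chromosome 2 from 134660741 to 134847575 has 13 transcripts, spans IRF1 and IL5 on the opposite strand and shares 63 exon bases with RAD50. The libraries marked the strand, but whether the counting used it is not given in the sources used here.

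Over the 8 genes, 6 had a log2 fold change above 0, beside 52.3% of all genes tested, and their median was 0.32. No overlap with higher diabetic levels was found for 2 of the 8, beside 2.69% of all genes tested, and with lower diabetic levels for 1 of the 8, beside 2.96%. Since the set was drawn up around CPT1A, no test was made of these counts.

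**Figure D3:**
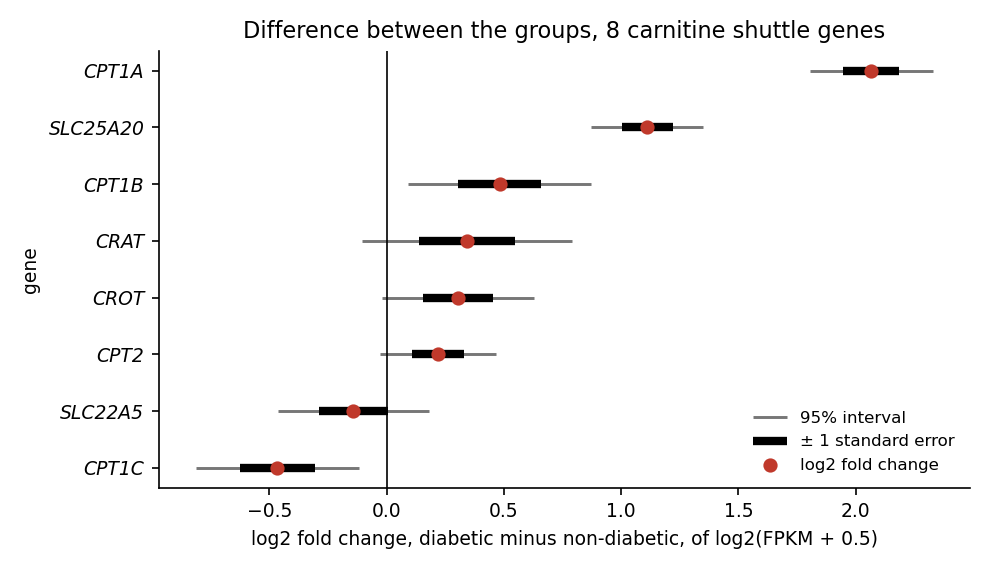
Log2 fold change (diabetic minus non-diabetic, of log2(FPKM + 0.5)) of each of the 8 genes with 1 standard error (thick line) and the 95% interval (thin line) from limma. CPT1A at 2.07 and SLC25A20 at 1.11 stand apart from the other 6 genes, which lie between -0.47 and 0.48.

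The order of the levels differed between the groups. In diabetic wounds CPT1A was followed by SLC25A20, and the ranges of these 2 genes were separate. CROT and CRAT came next and did not differ beyond their spread, with CROT the higher in 3 of 7 wounds. CPT2 and CPT1B followed, each below the preceding gene in 7 of 7 wounds, and CPT1C and SLC22A5 came last, with CPT1C the higher in 5 of 7. In non-diabetic wounds CROT, CRAT and SLC25A20 came first and did not differ beyond their spread, each standing above the next in 2 of 4 wounds. CPT2 and CPT1A were next and likewise exchanged places, with CPT2 the higher in 2 of 4 wounds, and CPT1B, CPT1C and SLC22A5 followed with separate ranges.

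Joint variation with CPT1A between the diabetic wounds, which played no part in choosing the genes, was examined for the other 7 genes on log2(FPKM + 0.5). CROT had the largest correlation with CPT1A (Pearson r = 0.63, exact permutation p = 0.130, Spearman rho = 0.71, exact permutation p = 0.0881, n = 7). For SLC25A20, the other gene with separate groups in the same direction, r was 0.11 and rho 0.04 (two-sided exact permutation p = 0.836 and 0.963, n = 7). CPT1C had r = -0.56, SLC22A5 0.50, CRAT -0.29, CPT1B -0.18 and CPT2 -0.13. Adjusted over the 7 relations, the smallest p was 0.60 (Benjamini-Hochberg of the exact permutation test), so no relation passed. Without the 2 wounds farthest from the median of CPT1A, diabetic replicates 5 and 6, r was 0.89 for CROT (exact permutation p = 0.0417, adjusted p = 0.156, n = 5) and -0.69 for SLC25A20. The range of CPT1A over these wounds was narrow, which limits what a correlation can show.

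The genes whose pattern over the 11 wounds was most like that of CPT1A were PLIN2, KLF11, LOC102164657, ERAP1 and CD79A, by the root mean square difference of log2(FPKM + 0.5) after centring each gene, over 13948 genes outside the set. PLIN2, which coats lipid droplets, was the nearest at 0.26, and its diabetic level of 48.2 ± 6.46 FPKM (SD, n = 7) compared with 16.0 ± 3.95 FPKM (SD, n = 4) without diabetes. KLF11, a zinc finger transcription factor, followed at 0.35, LOC102164657 at 0.36, ERAP1, an aminopeptidase that trims peptides for antigen presentation, at 0.36, and CD79A, a B cell receptor component, at 0.39. SLC25A20 would stand at place 22 by this measure. LOC102164657 and ERAP1 averaged 2.41 and 2.24 FPKM in diabetic wounds and were close to absent, at 0.00926 and 0.0850 FPKM, in non-diabetic wounds. The 0.5 added before the log shrinks such differences, so the likeness of these 2 genes to CPT1A depends on it. The genes most like SLC25A20 were SLC27A3, an acyl-CoA synthetase, at 0.15, LOC110258311 at 0.16, NADK2, the mitochondrial NAD kinase, at 0.16, ISYNA1, the inositol-3-phosphate synthase, at 0.18 and MSRB2, a mitochondrial methionine sulfoxide reductase, at 0.20. CPT1A would stand at place 2304 there. These genes were found by their likeness to a known difference, so the tests of PLIN2 and SLC27A3 given with their lists are not independent of it, and the others are not tested here.

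Around the shuttle, 93 of 117 genes written in 9 lists passed the filter, of which 4 were called higher and 4 lower (limma), beside the 1.35% and 1.66% of all genes. Their median log2 fold change was 0.05. The lists were written with earlier results of these data known, and some of their genes are named in the study. At an unadjusted p under 0.05, 21 of the 93 differed, beside 18.4% of all genes tested (limma), and voom on recovered reads also called 4 higher and 4 lower. With the replicate number as a block, 0 of the 93 were called in either direction (limma), and 16 had an unadjusted p under 0.05, beside 8.03% of all genes. That block leaves few residual degrees of freedom. Diabetic replicates 5 to 7 have no same-numbered non-diabetic wound and do not enter its contrast, so a loss of calls is partly set by the design.

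In the list of PPAR targets of fasting, which share a regulator with CPT1A, 3 of 6 genes tested were called higher and 0 lower. ANGPTL4, a secreted inhibitor of lipoprotein lipase, averaged 120.1 ± 26.8 FPKM (SD, n = 7) with diabetes and 20.01 ± 7.21 FPKM (SD, n = 4) without, and rose by 2.58 on the log2 scale (limma, adjusted p = 0.000338). PLIN2 rose by 1.58 (limma, adjusted p = 0.000306) and UCP2, an inner membrane carrier, by 1.05 (limma, adjusted p = 0.0149). The call of UCP2 was lost without non-diabetic replicate 1 (adjusted p = 0.0583) or 4 (0.0548). PDK4, the kinase that restrains pyruvate oxidation, had a log2 fold change of 1.59 and did not pass (limma, adjusted p = 0.0925). The other genes tested, UCP3 and FGF21, had log2 fold changes of -0.85 and 0.17 and did not pass (limma, adjusted p = 0.346 and 0.759). Of the 14 nuclear receptors and coregulators tested, 0 were called in either direction by limma or by voom. An unadjusted p under 0.05 was found for 1 of the 14 by each, beside 18.4% (limma) and 18.3% (voom) of all genes. ESRRA, the most abundant by its mean over the 11 wounds, had a log2 fold change of 0.31 (limma, adjusted p = 0.437) and PPARA one of -0.64 (limma, adjusted p = 0.309), while PPARGC1A did not pass the filter.

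In the list of malonyl-CoA and AMPK control, 4 of 9 genes tested had a log2 fold change above 0. Of the 9, 0 were called higher and 1 was called lower, beside 1.35% and 1.66% of all genes. This was ACACA, the carboxylase that makes malonyl-CoA in the cytosol, with 5.15 ± 0.716 FPKM (SD, n = 7) under diabetes and 11.09 ± 5.12 FPKM (SD, n = 4) without it, a log2 fold change of -0.96 (limma, adjusted p = 0.0289). That call was kept in 16 of 23 alternatives, and was lost without diabetic replicate 5, 6 or 7 or non-diabetic replicate 1 or 2, with log2 fold changes of -1.05 to -0.92 and adjusted p from 0.0510 to 0.0645. It was also lost without diabetic replicate 4 and non-diabetic replicate 1 together (log2 fold change -1.04, adjusted p = 0.0722). STK11, the kinase upstream of AMPK and the most abundant gene of the list, had 16.0 ± 1.12 and 14.9 ± 1.33 FPKM (limma, adjusted p = 0.576).

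Before the shuttle, fatty acids are activated to acyl-CoA. Among 9 acyl-CoA activation genes, SLC27A3 rose by 0.92 (limma, adjusted p = 0.000562) and ACSL3, a long-chain acyl-CoA synthetase of lipid droplets, fell by 0.74 (limma, adjusted p = 0.00103). DBI, the acyl-CoA binding protein and the most abundant gene of that list, had a log2 fold change of 0.10 (limma, adjusted p = 0.885). Among 9 genes of carnitine supply and related carriers, 6 had a log2 fold change above 0. Of the 9, 0 were called higher and 1 was called lower, beside 1.35% and 1.66% of all genes. SLC25A29, a mitochondrial carrier of basic amino acids named for its likeness to the carnitine carrier, had 5.34 ± 1.05 FPKM (SD, n = 7) and 8.29 ± 1.18 FPKM (SD, n = 4) (limma, adjusted p = 0.0459). Its call was kept in 9 of 23 alternatives and was lost without any wound but diabetic replicates 4 and 6, with adjusted p from 0.0545 to 0.147. ALDH9A1, an enzyme of carnitine synthesis and the most abundant of the list, had a log2 fold change of 0.21 (limma, adjusted p = 0.470).

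After the shuttle, acyl-CoA enters beta-oxidation in the matrix. Of 15 genes of mitochondrial beta-oxidation, 0 were called in either direction by limma or by voom, and 4 had an unadjusted p under 0.05 by each, beside 18.4% (limma) and 18.3% (voom) of all genes. A log2 fold change above 0 was found for 12 of the 15, beside 52.3% of all genes, with a median of 0.18. The groups did not overlap for 2 of the 15, beside 2.69% of all genes. These were ACADM, the medium-chain acyl-CoA dehydrogenase, at 38.1 ± 1.67 and 32.1 ± 1.196 FPKM (limma, adjusted p = 0.0671), and ETFB, which takes up the electrons, at 28.6 ± 3.49 and 21.98 ± 1.86 FPKM (limma, adjusted p = 0.0794). ECHS1, the hydratase and the most abundant, had 83.5 ± 7.16 FPKM (SD, n = 7) and 83.3 ± 1.36 FPKM (SD, n = 4). Of 10 genes of peroxisomal oxidation, whose products CROT hands on, 0 were called by limma or voom (1 at an unadjusted p under 0.05 by each), and SCP2, a thiolase and the most abundant, had a log2 fold change of -0.13. Of the 8 genes of mitochondrial content with a row, 0 were called by limma or voom (1 at an unadjusted p under 0.05 by each), and VDAC1, the outer membrane channel, had 89.6 ± 5.29 and 80.4 ± 5.18 FPKM. Among 13 genes of acetyl-CoA handling, where CRAT acts, 3 had a log2 fold change above 0. Of the 13, 0 were called higher and 1 was called lower, beside 1.35% and 1.66% of all genes. The gene called lower was PDP2, a pyruvate dehydrogenase phosphatase, with a log2 fold change of -0.69 (limma, adjusted p = 0.0290). Its call was kept in 15 of 23 alternatives and was lost without diabetic replicate 3, 5 or 7 or non-diabetic replicate 1, 3 or 4, with adjusted p from 0.0528 to 0.110. ACLY, the citrate lyase and the most abundant of that list by its mean over the 11 wounds, had a log2 fold change of -0.97 and did not pass (limma, adjusted p = 0.124).

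**Figure D4:**
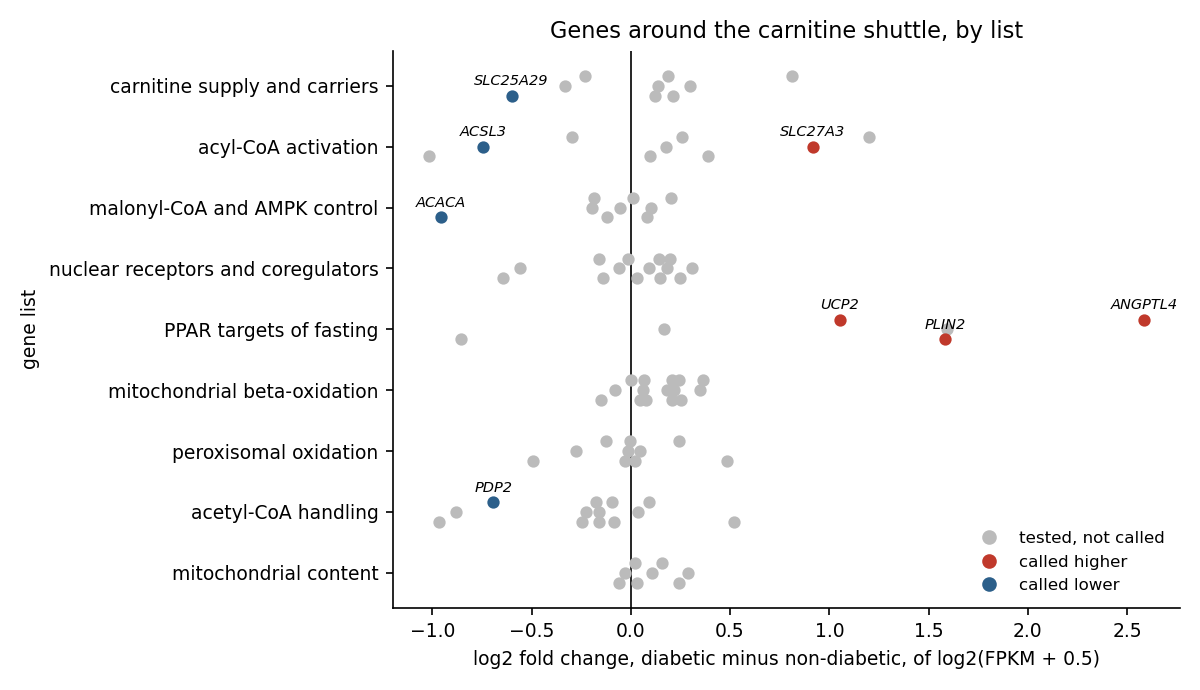
Log2 fold change (diabetic minus non-diabetic, of log2(FPKM + 0.5)) of the 93 tested genes in 9 lists around the carnitine shuttle, with genes called higher in red, genes called lower in blue and the others in grey. The 3 called PPAR targets lie to the right at 1.05, 1.58 and 2.58. Of the 15 beta-oxidation genes, 0 were called and 12 lie above 0, with a median of 0.18.

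Marker genes of skin and immune cell types were summed beside these levels. The 9 macrophage markers summed to 711 to 1653 FPKM in diabetic and 459 to 868 FPKM in non-diabetic wounds, and 6 of the 9 had an unadjusted p under 0.05 (limma), beside 18.4% of all genes. Of these, 2 were called higher, MARCO, a scavenger receptor, by 1.80 (limma, adjusted p = 0.00419) and MRC1, the mannose receptor, by 0.73 (limma, adjusted p = 0.00585). MRC1 encodes CD206, and the study's immunostaining found substantially fewer CD206-positive macrophages in diabetic wounds. Stained cells and RNA of bulk tissue are unlike measures, and why they went in opposite directions was not tested. Medians of the macrophage sums were 1025 FPKM with diabetes and 718 FPKM without. The lowest diabetic sum, 711 FPKM for replicate 2, lay just under the 718 and 719 FPKM of non-diabetic replicates 4 and 2. The 8 adipocyte markers summed to 300.3 to 894 FPKM and 332 to 541 FPKM, and 2 of them, LEP and LPL, were called lower. The 9 keratinocyte markers summed to 41.5 to 6452 FPKM and 251 to 2460 FPKM, and KRT15 was called higher by limma and not by voom. No gene was called, or had an unadjusted p under 0.05, by limma or voom in the lists of neutrophils (46.2 to 10791 and 301 to 12591 FPKM), fibroblasts (19100 to 52758 and 34286 to 64924 FPKM), endothelium (213 to 272 and 208 to 269.7 FPKM) and sebaceous gland (24.1 to 44.6 and 34.3 to 38.3 FPKM), where AWAT1 had 0 reads. The part of any of these cell types in the levels of CPT1A and SLC25A20 was not tested.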

How the data were processed

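Total RNA from 7 diabetic and 4 non-diabetic wounds was sequenced as poly(A) libraries, 1 per wound. Per the labels and the study's methods, reads were cleaned (fastp), aligned to Sscrofa11.1 (HISAT2 2.2.1), assembled (StringTie 2.2.3) and counted per gene (featureCounts 2.0.6), and the authors deposited FPKM values for 30376 genes. The formula of the FPKM is not given in the sources used here. Multiplied by gene length, 100% of the deposited FPKM values were whole reads to within 0.05 reads, and the depth was recovered from them. Coordinates had the same start as in the RefSeq annotation of Sscrofa11.1 for 100% of 30335 identifiers.

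The study tested raw counts. Since FPKM are not counts, log2(FPKM + 0.5) was fitted here with limma (lmFit, eBayes with trend, Benjamini-Hochberg over 13956 genes with at least 0.5 FPKM in at least 4 libraries). Calls needed both an adjusted p under 0.05 and a log2 fold change over 0.5 in size. Fold changes on this scale understate those of low genes. The 11 wounds were grouped by their labels, and p-values measure only the spread between wounds of a single animal per group. Intervals and SD hold no error beyond that. The fit was tested on simulated data. Relations to CPT1A used exact permutation tests.

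The 8 genes, the lists and the tests were chosen with earlier results of these data known. Named are the 8 genes, the called genes and the most abundant gene of each list by its mean over the 11 wounds, the 5 genes most like CPT1A and SLC25A20, and marker sums. PPARA, PPARGC1A, PDK4, UCP3, FGF21, ACADM, ETFB and the called marker genes were named after their values were seen. Of the list genes, 7 of 117 had no row under the symbol used, and KRT14, MB and TUBB3 of the markers had none. Promoter windows were read from the RefSeq genome of Sscrofa11.1. Alternatives changed the pseudocount, filter, scaling, spread estimate, library weights, replicate block, a covariate for the letter of the library name, and the wounds included, or ran voom on the recovered reads. Statistics were run in R 4.3.3 (limma 3.58.1) and in Python 3.11.15 with SciPy 1.17.1, pandas 2.3.3 and numpy 2.4.6. Figures were drawn with matplotlib 3.10.9.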

Additional observations from a re-analysis of the deposited data

Results flagged for a closer look

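The level of CPT1A in diabetic replicate 5, 30.7 FPKM, was the lowest of the 7 diabetic wounds and lay far from the others for so narrow a group, with Dixon's ratio of gap to range above its 95% critical value. The other diabetic wounds had 33.3 to 35.3 FPKM. Over the 8 genes in both groups, 16 sets of wounds were screened and 1 was flagged, and chance flags about 1 in 20. The wound was still 20.8 FPKM above the highest non-diabetic wound.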

How the results depend on the processing

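The log2 fold changes of the 8 genes kept their direction and moved by less than 1 SD of the wounds within a group in 23 of 23 alternatives, from 1.98 to 2.18 for CPT1A, 1.04 to 1.21 for SLC25A20, 0.40 to 0.62 for CPT1B, -0.62 to -0.37 for CPT1C, 0.15 to 0.29 for CPT2, 0.21 to 0.54 for CRAT, 0.18 to 0.39 for CROT and -0.23 to -0.01 for SLC22A5. Counts of calls moved more, and beyond the limits of the replicate block given below the cause was not tested. Against 188 genes called higher and 231 lower in all, library weights gave 406 and 416. Leaving out diabetic replicate 4 and non-diabetic replicate 1 together gave 106 and 81, and leaving out single wounds gave 104 to 236 and 75 to 247. Without any single non-diabetic wound the counts were 104 to 126 and 75 to 122. Without any single diabetic wound they were 135 to 236 and 154 to 247. The list genes called higher numbered 3 to 5 and those called lower 1 to 4 when single wounds were left out, and 1 was called lower without that pair. The replicate block left 11 calls of higher and 5 of lower genes, and 0 and 0 of the list genes. It had few residual degrees of freedom and held diabetic replicates 5 to 7 out of the contrast. The numbers did not pair the wounds, which come from different animals: same-numbered wounds had correlations of deviations of -0.27, 0.22, 0.07 and -0.48. Dividing each library by its sum gave 152 higher and 293 lower (34.2% higher, against 44.9%), and voom on recovered reads 149 and 259 (36.5%). Without diabetic replicates 5 and 6, the relation to CPT1A turned from 0.11 to -0.69 for SLC25A20 and from 0.50 to -0.33 for SLC22A5. With 7 and 4 wounds of 1 animal each, no alternative separates the diabetic state from the animal, and low genes such as CPT1C (117 to 292 reads) and SLC22A5 (185 to 448 reads) carry more counting error than CPT1A.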
